A study of Mus musculus with 8 samples.

Results

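The Piwi proteins and their Tudor domain and helicase partners make up the core of the piRNA pathway, and 10 of its genes were followed here. They were Piwil1, Piwil2, Piwil4, Mael, Tdrd1, Tdrd5, Tdrd6, Tdrd7, Asz1 and Mov10l1. Members were taken as all non-control probes whose gene name in the array files is one of these symbols, which gave 14 of the 41174 probes on each array. The study asked what the loss of VRK1, a protein kinase of dividing cells, does to gene expression in the early postnatal testis. Total RNA came from whole testes of male mice at postnatal day 8, with 4 wild type and 4 VRK1-deficient biological replicates on 1-color Agilent arrays. The VRK1-deficient mice carry a β-geo gene trap in an intron of Vrk1 and come from 1 embryonic stem cell clone bred to C57BL/6. They are hypomorphic, since some full-length VRK1 is still made.

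Piwi proteins bind small RNAs of the germ line, the piRNAs, and with them silence transposons and guide DNA methylation in developing male germ cells. Tudor domain proteins bind methylated arginines of the Piwi proteins and gather them in granules near the mitochondria and in the chromatoid body. The loss of most of these genes in mice leads to active transposons and to male sterility.

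Signals are given as log2 values relative to the 75th percentile of each array, and changes are VRK1-deficient minus wild type. A probe was tested with limma when 4 or more of the 8 arrays had it well above background, and a gene was read from its brightest probe. It was called at a Benjamini-Hochberg adjusted p under 0.05 over the 26948 tested probes. Of the 10 genes, 9 could be tested (12 of 14 probes). The Vrk1 probe fell by 4.00 on the log2 scale, which left 6.23% of the wild type signal (standard error, SE, 0.21, adjusted p = 0.000135 by limma). The position of this probe in the transcript, before or after the trap, was not analysed here. Each of the 2 slides held 2 arrays of each genotype, with wild type at array positions 1 and 2 and VRK1-deficient at positions 3 and 4, so position and genotype cannot be told apart. Wild type replicate 1 stood apart from its group. It correlated across probes at 0.987 to 0.990 with the VRK1-deficient arrays and at 0.970 to 0.986 with the other wild type arrays, so results are given with and without it.

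All 9 tested piRNA genes had a lower mean signal in VRK1-deficient testes, between 41.7% (Piwil4) and 76.4% (Tdrd7) of wild type. Piwil4 and Tdrd1 were called lower, 2 of 9 genes, where 1.99% of all tested probes were called lower. At an unadjusted limma p under 0.05, 9 of 9 genes were lower, against 14.8% of all tested probes. The median log2 change of the 9 genes was -0.81, and that of all tested probes was 0.041. Without wild type replicate 1, the 9 genes were all called lower, where 14.7% of all tested probes were. That array was the lowest wild type array for all 9 genes, so leaving it out was bound to enlarge each fall. The fits without it, here and for each gene below, are therefore not independent support. Dropping any single array but that one (7 fits), limma called 0 of the 9 genes, where 0.00742% to 0.0853% of all tested probes were called lower. In those fits 4 to 8 of the 9 genes had an unadjusted p under 0.05. The share of all tested probes at that unadjusted p is not given for them. These p-values rest on 4 arrays against 4, or on fewer where an array was dropped.

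The 3 Piwi genes had lower mean signals in VRK1-deficient testes, and were not tested against each other. Piwil4, the nuclear Piwi protein MIWI2, which directs DNA methylation of transposons in fetal germ cells, had the largest change of the 9 genes with all 8 arrays, though not under every alternative. Its probe A_52_P14778 (chr9:14537500-14537559 on mm7, minus strand) read -1.53, -0.62, 0.01 and -0.74 on wild type replicates 1 to 4 and -2.01, -1.69, -2.08 and -2.14 on VRK1-deficient replicates 1 to 4. The highest VRK1-deficient array was below the lowest wild type array, as it was for 7.31% of all tested probes. Piwil4 fell by 1.26 on the log2 scale, or 2.40-fold (SE 0.28, adjusted p = 0.0492 by limma). The adjusted p was 0.00354 without wild type replicate 1 and 0.0698 to 0.150 when another single array was dropped. A second Piwil4 probe (A_51_P299795, chr9:14532007-14532066 on mm7, minus strand) was not well above background on any array, so it gives no value for the comparison. With the normexp background, Piwil4 changed by -1.01 and Tdrd1 by -1.15. With both Piwil4 probes averaged the change was -0.41, but that average includes the probe that was not well above background.

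The first bases of the probes of Piwil4 and Tdrd1 are shown, as these were the called genes and as their probes did not read alike. They are taken from the array files, 5′ to 3′, and each probe is 60 bases long.
Piwil4 A_52_P14778: catcacagcttctaaaacaatatttgtgtg
Piwil4 A_51_P299795: agaggctggtactatactacacattgaata
Tdrd1 A_52_P48218: gttgagtcgaccttctcatgtaaaaagttg
Tdrd1 A_51_P478238: aaggaaaagtgcttccactaaagagatacc

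Piwil2 encodes MILI, the Piwi protein that male germ cells keep from fetal life into meiosis. Its probe (chr14:65017174-65017233 on mm7, minus strand) read -1.04, -0.25, 0.80 and 0.51 on the wild type arrays and -1.75, -0.79, -0.50 and -1.12 on the VRK1-deficient arrays. Wild type replicate 1 lay inside the VRK1-deficient range, and the other wild type arrays lay above it. The log2 change of Piwil2 was -1.05, which left 48.4% of the wild type signal, but the spread was wide (SE 0.41, adjusted p = 0.135 by limma). Without wild type replicate 1 the change was -1.40 (adjusted p = 0.0184).

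Piwil1, or MIWI, is the Piwi protein of later meiotic cells and round spermatids. It read -3.35, -2.31, -3.17 and -2.28 on the wild type arrays and -3.96, -3.16, -3.29 and -3.63 on the VRK1-deficient arrays (chr5:127989660-127989719 on mm7, plus strand). Wild type replicates 1 and 3 lay inside the VRK1-deficient range, and replicates 2 and 4 above it. All 8 arrays were well above background, with processed signals from 44.4 to 171. The log2 change was -0.73 (SE 0.28, adjusted p = 0.134 by limma), and it was -0.92 without wild type replicate 1 (adjusted p = 0.0353).

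Among the tested Tudor domain genes, the change was largest for Tdrd1, whose protein binds MILI in the granules between mitochondria. Its brighter probe A_52_P48218 (chr19:56785896-56785955 on mm7, plus strand) read 2.83, 3.52, 4.07 and 3.62 on the wild type arrays and 2.10, 2.71, 2.57 and 2.21 on the VRK1-deficient arrays. The 2 genotypes did not overlap. Tdrd1 fell by 1.11 on the log2 scale, which left 46.3% of the wild type signal (SE 0.26, adjusted p = 0.0498 by limma). The adjusted p was 0.00414 without wild type replicate 1 and 0.0766 to 0.151 when another single array was dropped. The dimmer probe A_51_P478238 changed by -0.80 (adjusted p = 0.0982), with overlap between the genotypes.

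Tdrd5 and Tdrd7, which take part in building the chromatoid body and in repressing transposons, had the smallest changes. Tdrd5 (chr1:156218266-156218325 on mm7, minus strand) read 0.07, 0.93, 0.75 and 0.62 on the wild type arrays and -0.01, 0.31, 0.25 and 0.04 on the VRK1-deficient arrays. Its log2 change was -0.44 (SE 0.19, adjusted p = 0.159 by limma), and a dimmer probe, well above background on 3 arrays of each genotype, changed by -0.41 (adjusted p = 0.558). Tdrd7 (chr4:46048426-46048485 on mm7, plus strand) read 1.86, 2.39, 2.65 and 2.48 on the wild type arrays and 1.84, 2.03, 1.90 and 2.06 on the VRK1-deficient arrays. For both genes, wild type replicate 1 was inside the VRK1-deficient range and the other wild type arrays were above it. The log2 change of Tdrd7 was -0.39 (SE 0.17, adjusted p = 0.173 by limma), and without wild type replicate 1 the changes were -0.61 for Tdrd5 and -0.55 for Tdrd7 (adjusted p = 0.0121 and 0.0116).

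Tdrd6, a large Tudor protein of the chromatoid body in spermatocytes and spermatids, was near background. Its probe (chr17:41742506-41742565 on mm7, minus strand) exceeded background clearly on 3 wild type and 0 VRK1-deficient arrays and did not enter the test. It read -5.85, -5.57, -5.63 and -5.38 on the wild type arrays and -6.63, -5.96, -5.76 and -6.12 on the VRK1-deficient arrays. With the VRK1-deficient arrays set no lower than the lowest signal well above background on each, the means differed by at least 1.01-fold. The arrays of the genotypes overlapped and no test was made, so this shows no fall.

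Mael is a germ cell granule protein needed for transposon silencing, Asz1 (GASZ) holds the granules at the outer membrane of mitochondria, and Mov10l1 is the RNA helicase that feeds piRNA precursors to the Piwi proteins. Mael (chr1:166172164-166172223 on mm7, minus strand) read 2.46, 3.35, 3.60 and 3.38 on the wild type arrays and 2.07, 2.69, 2.55 and 2.24 on the VRK1-deficient arrays. Wild type replicate 1 lay inside the VRK1-deficient range. The log2 change of Mael was -0.81 (SE 0.25, adjusted p = 0.0816 by limma). Asz1 read -1.06, -0.21, -0.05 and -0.05 on the wild type arrays and -1.20, -0.68, -0.90 and -1.08 on the VRK1-deficient arrays. Wild type replicates 2 to 4 lay above all VRK1-deficient arrays, and replicate 1 was among the lowest VRK1-deficient arrays. The log2 change of Asz1 was -0.62 (SE 0.23, adjusted p = 0.126 by limma). Its probe is placed across 16484 bases on mm7 (chr6:17995964-18012447, minus strand).

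Mov10l1 (chr15:89136622-89136681 on mm7, plus strand) read 0.23, 1.14, 1.16 and 1.49 on the wild type arrays and -0.44, 0.24, 0.39 and -0.29 on the VRK1-deficient arrays. Wild type replicate 1 lay just below 2 of the VRK1-deficient arrays. The log2 change was -1.03 (SE 0.29, adjusted p = 0.0679 by limma), and a second, dimmer probe placed upstream on mm7 changed by -1.17 (SE 0.30, adjusted p = 0.0607 by limma). The study lists Mov10l1 among spermatogenesis genes that it chose as lower on these arrays, so the direction of this gene is not independent evidence. Without wild type replicate 1, the log2 changes were -1.05 for Mael, -0.86 for Asz1 and -1.29 for Mov10l1 (adjusted p = 0.00496, 0.00576 and 0.00618).

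**Figure D1:**
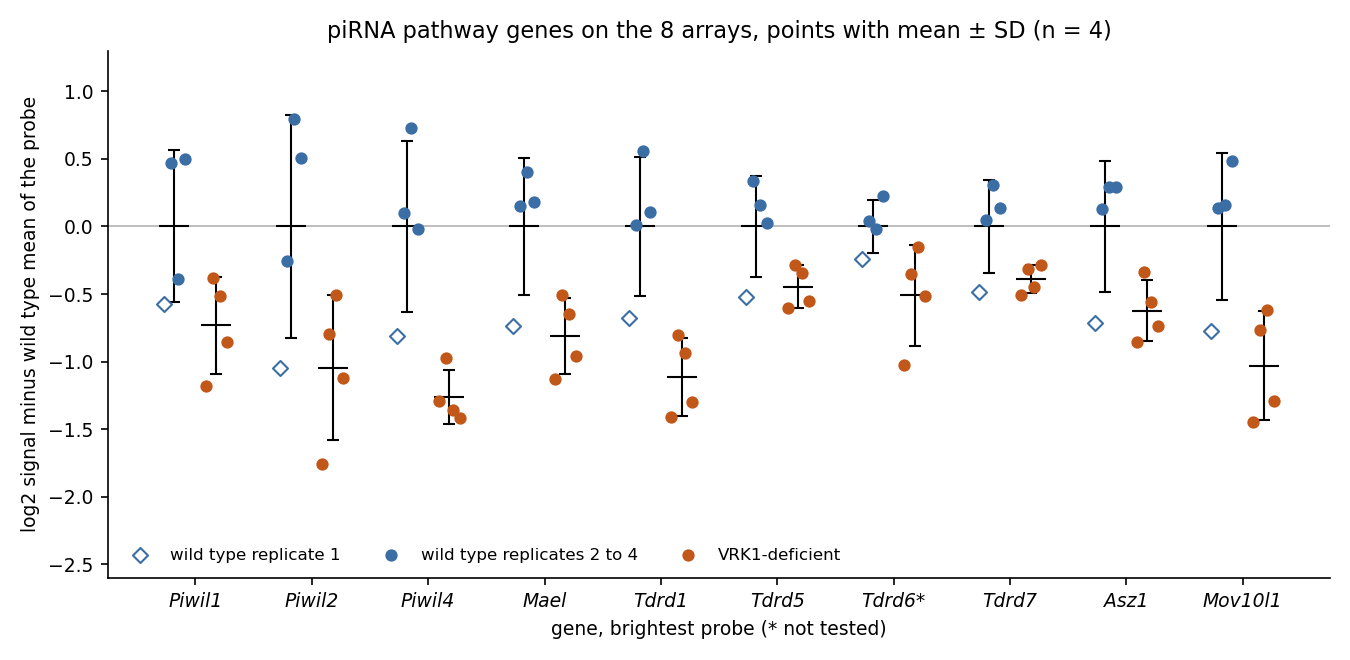
Log2 signal of the brightest probe of each gene on each array, minus the mean of the 4 wild type arrays for that probe; black bars are mean ± SD (n = 4) and open diamonds are wild type replicate 1. The 2 genotypes are apart for Piwil4 and Tdrd1, and the diamond is the lowest wild type point for each gene.

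The arrays of a group were ordered alike for many of the 9 genes. Wild type replicate 1 was the lowest wild type array for 9 of 9 tested genes, and for 30.7% of all tested probes. The wild type range over 4 arrays was wider than the VRK1-deficient range for 9 of 9 genes, and for 78.4% of all tested probes. It ran from 0.80 (Tdrd7) to 1.84 (Piwil2) on the log2 scale in wild type and from 0.22 (Tdrd7) to 1.26 (Piwil2) in VRK1-deficient testes. Among the VRK1-deficient arrays, replicate 2 was the highest for 6 of 9 genes. The median log2 signal of the 9 genes was 0.07, 0.93, 0.80 and 0.62 on wild type replicates 1 to 4 and -0.44, 0.24, 0.25 and -0.29 on VRK1-deficient replicates 1 to 4.

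Within slides, the 9 genes were lower in VRK1-deficient testes on both, as were 31.7% of all tested probes. The change was more negative within slide 2 than within slide 1 for 8 of 9 genes and for 47.7% of all tested probes, and slide 1 is the one that holds wild type replicate 1. The slide 1 and slide 2 values of Piwil4 were -0.77 and -1.75, and those of Tdrd1 were -0.76 and -1.46. Piwil2 changed by -0.63 and -1.46, and Mov10l1 by -0.78 and -1.27. Mael changed by -0.53 and -1.09, and Asz1 by -0.31 and -0.94. Tdrd5 changed by -0.34 and -0.54, and Tdrd7 by -0.19 and -0.58. Piwil1 was the exception and changed by -0.73 within both slides. The medians were -0.63 within slide 1, with 0 genes called and 0 at an unadjusted limma p under 0.05 (0.0111% of all tested probes were called lower), and -1.09 within slide 2, with 3 called lower, where 2.78% of all tested probes were. The 2 slides were not tested against each other.

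**Figure D2:**
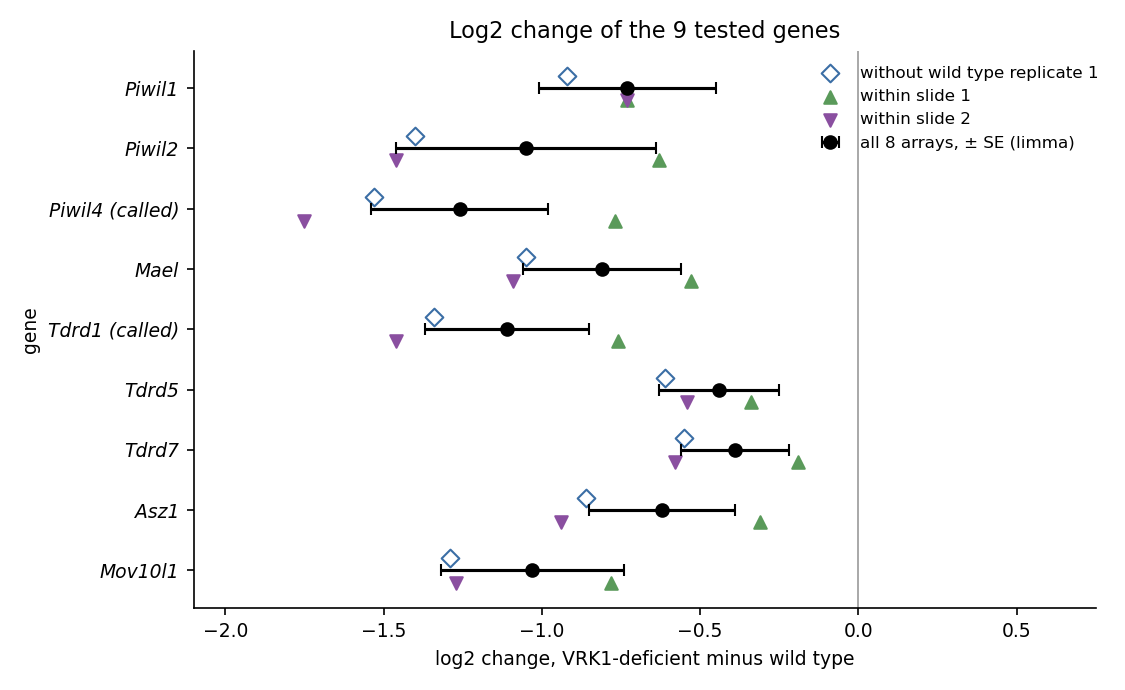
Log2 change of the 9 tested genes, VRK1-deficient minus wild type, with all 8 arrays (circles with the limma standard error), without wild type replicate 1 (diamonds) and within each slide (triangles). Every point is below 0, and the slide 2 points lie further from 0 than the slide 1 points except for Piwil1.

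Markers of germ cells moved in the same direction as the piRNA genes. The list holds Dazl, Stra8 and Lin28a, which the study chose as lower on these arrays, so their direction is not independent evidence. It also holds Ddx4, which is counted again in the further piRNA list below. All 13 germ cell markers with a probe, of 15 listed, passed the filter on background. Of these, 12 were lower and 10 were lower at an unadjusted p under 0.05, against 14.8% of all tested probes. Limma called 2 of them lower (1.99% of all tested probes were), and their median log2 change was -0.85. With replicate 1 of wild type left out, 11 were called lower and 1 higher, where 14.7% and 13.7% of all tested probes were. Their summed level on the log2 scale was 6.28 to 7.54 on the wild type arrays and 5.58 to 6.37 on the VRK1-deficient arrays, and its lowest wild type value was that of replicate 1. Sertoli cell markers were higher for 7 of 9 genes with 0 called by limma, and 14699 of the 26948 tested probes were higher. At an unadjusted p under 0.05, 4 of the 9 were higher and 2 lower. The share of all tested probes that were higher at that p is not given. On the same 7 arrays, 6 of the 9 were called higher and 1 lower. Their summed level was 7.48 to 8.00 in wild type and 7.83 to 8.07 in VRK1-deficient testes, and the highest wild type value was that of replicate 1. In whole testes, fewer germ cells and less RNA per germ cell cannot be told apart. The part of these shifts in the values of the piRNA genes was not tested beyond the ratio to Ddx4 that follows.

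Ddx4 encodes VASA, an RNA helicase of the same granules that germ cells make as a class. It read 1.48, 2.51, 3.01 and 2.63 on the wild type arrays and 1.19, 1.82, 1.76 and 1.53 on the VRK1-deficient arrays, a log2 change of -0.83 (SE 0.30, adjusted p = 0.117 by limma). Its change without wild type replicate 1 was -1.14 (adjusted p = 0.00555). Each gene was then taken relative to Ddx4 on the same array, which does not depend on the scaling between arrays. On that scale 4 of the 9 genes had a lower and 5 a higher value in VRK1-deficient testes, with a median log2 difference of 0.020. Piwil4 was at one end, at -0.43 (SE 0.33), and Tdrd7 at the other, at 0.44 (SE 0.34). Tdrd1, Piwil2 and Mov10l1 were at -0.28, -0.22 and -0.20. Mael, Piwil1, Asz1 and Tdrd5 were at 0.02, 0.10, 0.21 and 0.39. None of the 9 genes was called on this scale by limma, with 0 at an unadjusted p under 0.05, and 0.0111% of all tested probes were called in either direction. The adjusted p was 0.253 for Piwil4 and 0.251 for Tdrd7. Without wild type replicate 1, Tdrd7 was at 0.59 (limma adjusted p = 0.0343) and Piwil4 at -0.39 (adjusted p = 0.152). The share of all tested probes called in that fit is not given. Of the microRNA pathway genes below, Ago2 was at 1.49 and Xpo5 at 1.42 in it (adjusted p = 0.000196 and 0.000455). Ago1, Drosha, Dgcr8, Tnrc6a and Mov10 also had an adjusted p under 0.05 there, and Ago3, Ago4, Dicer1 and Tarbp2 did not. The call of Tdrd7 therefore does not set it apart from genes outside the piRNA pathway. The ratio shows how far a gene departed from Ddx4, not that either was unchanged.

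**Figure D3:**
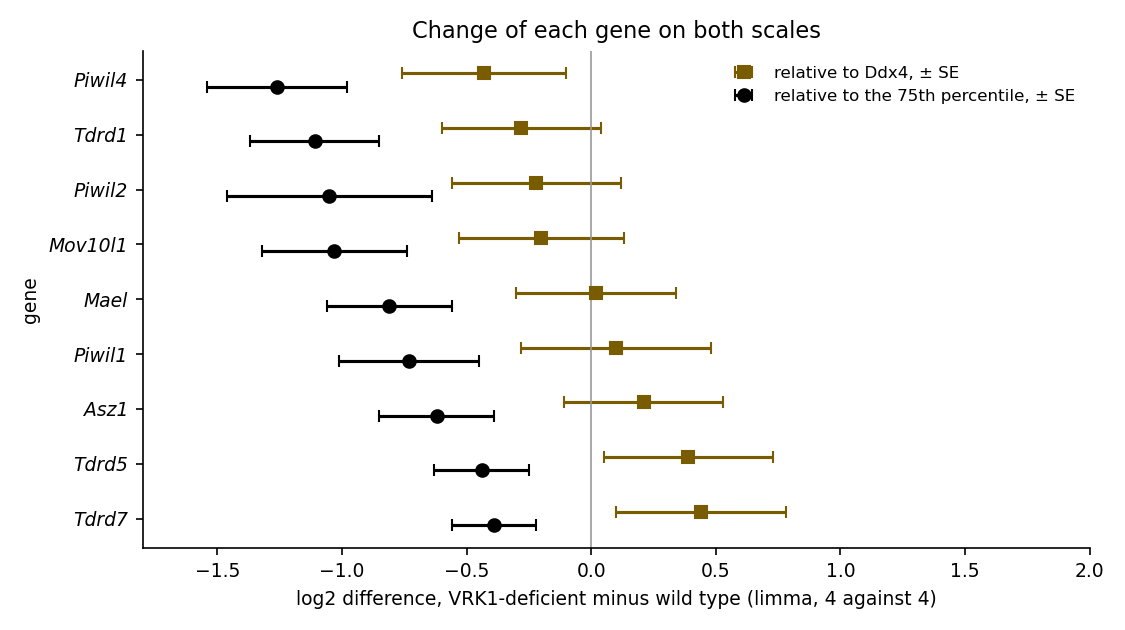
Log2 difference of the 9 tested genes between genotypes, from values centred on the 75th percentile (circles) and relative to Ddx4 on the same array (squares), each with its limma standard error. The circles lie between -1.26 and -0.39, and the squares lie on both sides of 0, between -0.43 and 0.44.

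A further list of 29 genes of the piRNA pathway, drawn from general knowledge, was read in the same fit. Of these, 26 had a probe and 25 were tested, with 22 lower and 3 higher in VRK1-deficient testes. The median log2 change was -0.74, close to that of the 9 genes. Tdrd9, Gpat2 and D1Pas1 were called lower, 3 of 25 genes, where 1.99% of all tested probes were. At an unadjusted limma p under 0.05, 18 were lower, against 14.8% of all tested probes. Tdrd9, a Tudor protein with a helicase domain that works with MIWI2, fell by 1.47 on the log2 scale (SE 0.30, adjusted p = 0.0471 by limma). Its probe (chr12:109593636-109593695 on mm7) is on the chromosome of the Vrk1 probe (chr12:103556489-103557469). For Tdrd9, loss of VRK1 and sequence inherited along with the gene trap cannot be told apart, and this was not tested. Gpat2, a mitochondrial acyltransferase of piRNA production, fell by 0.99 (adjusted p = 0.0473), and D1Pas1, a testis DEAD-box helicase, by 0.80 (adjusted p = 0.0445). The VRK1-deficient arrays lay below the wild type arrays for all 3. A second D1Pas1 probe changed by -0.25 (adjusted p = 0.34). Without wild type replicate 1, 19 of the 25 genes were called lower (14.7% of all tested probes) and 1, Nanos2, was called higher (13.7%). Dropping another single array instead left 0 called by limma, where 0.00742% to 0.0853% of all tested probes were called lower. In those fits 14 to 18 genes were lower at an unadjusted p under 0.05. The share of all tested probes at that unadjusted p is not given for them.

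Of the genes of this list that were not called, Rnf17 (a Tudor protein), Tex15 (a partner of MILI), Henmt1 (the enzyme that methylates piRNA ends) and Ddx25 (a helicase of meiotic and later germ cells) had the largest changes. Their log2 changes were -1.18, -1.16, -1.0 and -0.99 (adjusted p = 0.0675, 0.0796, 0.0609 and 0.0761). Rnf17 and Dnmt3a of this list are among the genes that the study chose as lower on these arrays. Mybl1, which encodes the A-MYB transcription factor of pachytene piRNA loci, was not well above background on any array. No probe was paired with Btbd18, Pnldc1 or Spocd1.

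The microRNA pathway is the other small RNA pathway of these cells and is also used outside the germ line. Of its 11 tested genes, 6 were lower and 5 higher, with a median log2 change of -0.36. All 6 had an unadjusted p under 0.05 (14.8% of all tested probes were lower at that p), and for 5 of them the genotypes did not overlap, against 7.31%. Of the 11, 5 were called lower without wild type replicate 1, against 14.7%. Dicer1, which cuts microRNA precursors, was the 1 gene of the 11 called with all 8 arrays, where 1.99% of all tested probes were called lower. It read 1.31, 1.50, 1.85 and 1.36 on the wild type arrays and 0.71, 0.75, 0.80 and 0.77 on the VRK1-deficient arrays. It fell by 0.75 on the log2 scale (SE 0.13, adjusted p = 0.0412 by limma), and its other probe changed by -0.55 (adjusted p = 0.106). Dicer1 lies near Vrk1, with probes at chr12:102216485-102216544 and chr12:103556489-103557469 on mm7. Loss of VRK1 and sequence inherited along with the gene trap cannot be told apart for Dicer1, and this was not tested. The Argonaute genes Ago4 and Ago3 changed by -0.83 and -0.56, Tarbp2, a partner of Dicer, by -0.52, and Drosha, which makes microRNA precursors in the nucleus, by -0.37. Their adjusted p were 0.0634, 0.0509, 0.0615 and 0.0930. The other probes of Ago4 disagreed in size, from -0.26 to -1.07 (adjusted p = 0.448 and 0.0443), and those of Drosha changed by -0.71 and -0.06. The lists were not tested against each other.

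**Figure D4:**
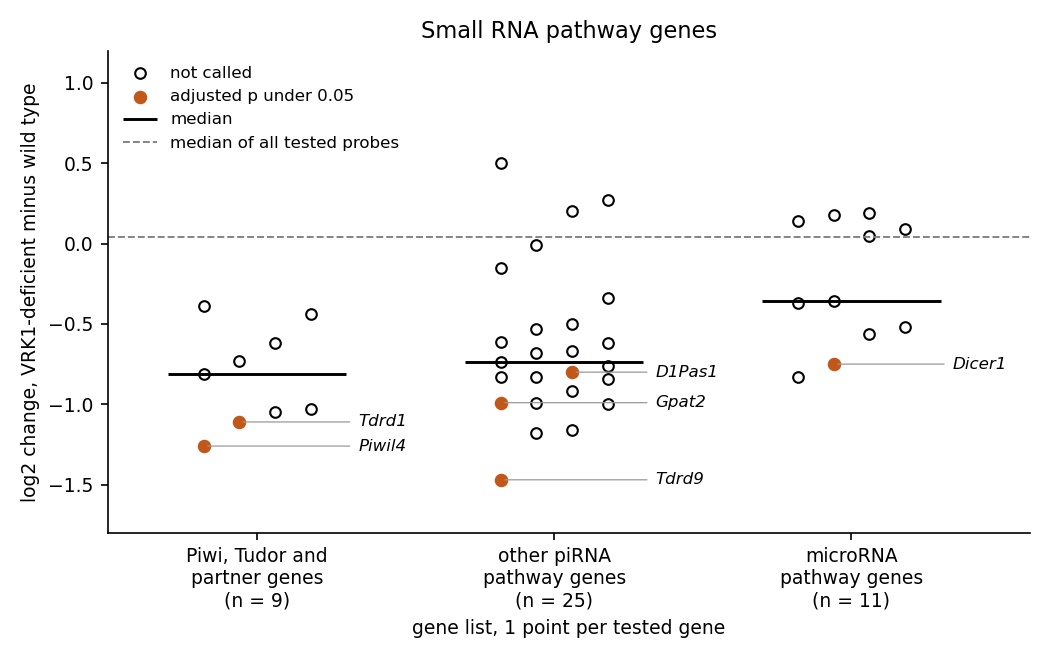
Log2 change, VRK1-deficient minus wild type, of each tested gene in the 3 small RNA lists; filled points have a adjusted p under 0.05, bars are medians and the dashed line is the median of all tested probes. The medians are -0.81 for the 9 genes, -0.74 for 25 other piRNA pathway genes and -0.36 for 11 microRNA pathway genes.

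Non-member probes were ranked by how closely their centred log2 profile over the 8 arrays followed the median profile of the 9 genes. The 5 nearest were those of Arih1, Taf5, Ccdc93, Exd1 and Rffl, with a mean absolute difference of 0.036, 0.041, 0.041, 0.043 and 0.049 on the log2 scale. Exd1, which encodes a partner of TDRD12 in piRNA production, is also in the piRNA list above. Of the members, Mael was nearest the median profile, at 0.028, and Piwil2 furthest, at 0.32. By this distance Mael ranked 1, Asz1 89, Mov10l1 706 and Piwil2 4361, so many other probes lay nearer than most members. The profile was itself built from the members.

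Promoters were examined because the genes moved in the same direction. The RefSeq promoter table (GRCm38.p6) held 13 windows for 8 of the 10 genes, each with 250 bases before and 50 after a transcript start. The motifs TAACNG and CAACNG (the core bound by MYB factors), CACGTG (an E-box) and TGACGTCA (the cyclic AMP response element) were searched on both strands. TAACNG or CAACNG was found in 7 of 13 windows and in 49.7% of all 32851 windows in the table. CACGTG was found in 5 of 13 windows and in 7.15% of all windows. The 5 windows belong to 4 genes, Piwil1, Mael, Tdrd1 and Mov10l1, and both Tdrd1 windows hold the same site. TGACGTCA was found in 0 of 13 windows and in 1.79% of all windows. The member windows held a median of 20 CG dinucleotides (range 0 to 48), against 7 over all windows, and CACGTG itself holds a CG.

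The 250 bases before the start are shown for 3 of the genes with an E-box, to let their motifs be compared. Capitals mark the matches to the MYB cores and the E-box on either strand, and sequences run 5′ to 3′ along the gene. The windows are chr5:128735996-128736245 for Piwil1, chr19:56825959-56826208 for Tdrd1 and chr15:88982744-88982993 for Mov10l1, all on GRCm38.p6 and the plus strand.
Piwil1: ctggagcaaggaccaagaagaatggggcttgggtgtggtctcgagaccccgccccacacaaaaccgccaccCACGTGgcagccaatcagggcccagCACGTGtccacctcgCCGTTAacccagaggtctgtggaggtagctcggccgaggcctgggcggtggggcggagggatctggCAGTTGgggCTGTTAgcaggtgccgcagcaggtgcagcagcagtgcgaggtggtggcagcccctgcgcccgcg
Tdrd1: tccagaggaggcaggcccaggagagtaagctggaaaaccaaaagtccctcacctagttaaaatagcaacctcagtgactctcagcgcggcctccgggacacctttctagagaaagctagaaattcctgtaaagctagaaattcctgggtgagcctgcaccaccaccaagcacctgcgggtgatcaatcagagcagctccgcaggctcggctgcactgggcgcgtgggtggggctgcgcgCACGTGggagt
Mov10l1: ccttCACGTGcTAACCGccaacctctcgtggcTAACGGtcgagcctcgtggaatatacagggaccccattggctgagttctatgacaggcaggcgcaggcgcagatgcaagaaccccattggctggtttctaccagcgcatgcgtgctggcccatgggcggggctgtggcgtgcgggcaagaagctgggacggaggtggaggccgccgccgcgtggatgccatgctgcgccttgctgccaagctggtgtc
With -1 as the base before the start, the E-boxes begin at -179 and -154 in Piwil1, at -11 in Tdrd1 and at -246 in Mov10l1. Piwil1 and Mov10l1 hold TAACNG matches as well, and the printed Tdrd1 window holds none of either MYB core. Of the called genes, Piwil4 has 2 windows without an E-box, and 1 of these holds a CAACNG match. A match is a description of the letters and not a binding site, and no factor was measured on these promoters.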

How the data were processed

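Total RNA of 8 testis samples was labeled with Cy3 by the authors, and each array was scanned and extracted with Agilent Feature Extraction 9.5.3.1. The deposited values are its linear processed signal intensities, from which it has subtracted the background, and the arrays were not scaled to each other. They were converted to log2, and each array was centred on its 75th percentile (548.4 to 850.6). Outlier spots (58 to 134 per array) were left out and spots of a probe were averaged. Between 63.6% and 69.5% of spots were well above background, and the number of arrays limits the precision. Genotypes were compared with limma 3.58.1 in R 4.3.3 (lmFit, eBayes), with Benjamini-Hochberg adjustment over all 26948 tested probes. The fit was tested on simulated data. Gene symbols were paired by accession, symbol or synonym in a RefSeq table, or kept from the array. Positions of probes were copied from the array files (mm7). Promoter windows were read with Python 3.11.15, and figures were drawn with matplotlib 3.10.9.

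The members and gene lists were chosen with earlier results of these data known. Named are all members and their probes, Vrk1, the called genes and the 4 largest other changes of the 2 other small RNA lists, and the 5 nearest profiles. Of marker lists, counts and summed levels are given, and markers that the study chose or that another list holds are named. The Leydig, peritubular, macrophage, and endothelial and blood lists had median log2 changes of 0.35, -0.06, 0.09 and 0.24. Alternatives covered scaling, background correction, filters, probe choice, slides, a replicate block, each array left out, the methods' t-test and robust variances. The deposited value table, which holds the same signals without scaling, was 1 of these. Proteins were not compared here.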

Additional observations from a re-analysis of the deposited data

Results flagged for a closer look

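Asz1 on wild type replicate 1 stood apart from its group. Its log2 signal was -1.06 there, while the other 3 wild type arrays lay between -0.21 and -0.05, so the gap to the nearest array took 0.84 of the range of the group, above the Dixon limit for 4 samples. It was the 1 group so marked of 26 examined (the 12 tested member probes and Ddx4, in each genotype), and chance marks about 5% of groups.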

How the results depend on the processing

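The log2 changes of the 9 tested genes were below 0 under all 20 alternatives, and both medians moved by less than the spread between replicates. The counts of calls moved. For the 9 genes, the count called lower was 1 with quantile normalization and 5 with the replicate block, where 1.33% and 5.70% of all tested probes were called lower. It was 0 without a filter on dim probes (0.0316% of all tested probes were called lower) and with probes averaged per gene (1.97%). For Piwil4, that average includes a probe not well above background on any array. The count was also 0 with slide as a block (1.21%), within slide 1 (0.0111%) and by the methods' t-test (0.178%). By the unadjusted p it was then 8 of 10 (with Tdrd6), 8, 8, 0 and 4, and the shares of all probes at that p are not given. For the 25 other piRNA genes (26 without the filter), it was 5 with quantile normalization (1.33% of all tested probes). It was also 5 with the unscaled deposited table (3.16%) and with probes well above background on all 8 arrays (3.08%). It was 7 with the normexp background (2.39%), 9 within slide 2 (2.78%), 14 with the replicate block (5.70%) and 6 with robust variances (3.91%). It was 0 without the filter, within slide 1 and by the methods' t-test (17, 2 and 15 by the unadjusted p). With each array left out in turn, the counts ran from 0 to 9 for the members and from 0 to 19 for the other genes. The share of all tested probes called lower then ran from 0.00742% to 14.7%. The highest counts and share are those without wild type replicate 1, and the cause was not tested. The unscaled table set the median of all probes at -0.14, against 0.041. The deviations of replicates of the same number correlated at 0.47, 0.07, 0.19 and -0.14, and 3 of 4 correlated best with their own number. The labels do not name pairs, and the main fit did not pair the replicates. The replicate block, which pairs them by number, gave more calls, and whether they are pairs was not settled. Probes near background, as for Tdrd6, limit what the arrays show.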

Other observations

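The list of other piRNA pathway genes holds some that are used in many cell types, and 5 of these were read side by side after their values were seen. Prmt5 and Wdr77, which methylate the arginines that Tudor domains bind, changed by -0.15 and -0.34 on the log2 scale (limma adjusted p = 0.431 and 0.2). The chaperone Hsp90aa1 changed by -0.01 (limma adjusted p = 0.974). Tdrd3 and Snd1, Tudor domain genes of somatic as well as germ cells, were at 0.20 and 0.27 (limma adjusted p = 0.343 and 0.375). Read from their brightest probes, none of these 5 genes was called by limma in either direction, and 0 had an unadjusted p under 0.05. A dimmer Tdrd3 probe changed by 0.54 (limma adjusted p = 0.0509). The 5 are not all such genes of the list. Dnmt3a, also used in many cell types and chosen by the study as lower, changed by -0.74 (limma adjusted p = 0.0578). Its genotypes did not overlap, as for 7.31% of all tested probes in that direction, and its other probes changed by -1.03 and 0.13. The 5 genes therefore do not show that broadly used genes of the list were unchanged. Nanos2, an RNA-binding protein of undifferentiated male germ cells, was the third gene with a higher signal, with -4.13, -3.90, -4.18 and -4.39 on the wild type arrays and -3.50, -3.53, -3.77 and -3.77 on the VRK1-deficient arrays. Its 2 genotypes did not overlap, as for 9.40% of all tested probes in this direction (log2 change 0.50, standard error 0.14, limma adjusted p = 0.0633). Without wild type replicate 1 it was called higher (limma adjusted p = 0.034).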
